A study of Mus musculus with 6 samples.

Results

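The HSP70 family comprises ATP-driven chaperones that bind exposed hydrophobic stretches of other proteins. Its expression was described here through 10 genes of the 27482 gene symbols in the deposited mouse table: Hspa1a, Hspa1b, Hspa1l, Hspa2, Hspa4, Hspa4l, Hspa8, Hspa9, Hspa13 and Hspa14. The genes were chosen by family membership with the difference between the 2 groups of these same libraries already known, so their differences between the groups are a description. No p-value is given for a member, and where members past the threshold of the fit over all genes are counted, the count is part of that description and not evidence. All 10 were measured, and all 10 were among the 14663 genes that passed the low-count filter. Hspa1a and Hspa1l passed it through the control libraries, where they had more counts.

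RNA-seq was done on 6 libraries labelled as hearts of male mice, 3 labelled AAV9-hFNDC4 (genotype label FNDC4 overexpression) and 3 labelled AAV9-CTRL (genotype label Control). AAV9 is an adeno-associated virus serotype used to carry genes into the heart, and FNDC4 is a secreted protein with a fibronectin type III domain. Both groups underwent I/R (ischemia followed by reperfusion, a block of blood flow that is then lifted), with collection 24 h afterwards, so no library without injury or without a vector serves as a baseline. The labels give neither the promoter of the vector nor the strain and age of the mice. The labels do not state separate animals for the 3 libraries of a group. P-values, given here for genes outside the family, thus weigh the group difference only against the spread between these libraries, and that spread may be technical. The level of the targeted gene was not analysed here, so it does not check the labels.

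Total counts were 34419687 to 35149915 in the AAV9-hFNDC4 libraries and 32975817 to 36074046 in the AAV9-CTRL libraries. Genes with at least 1 count numbered 18717 to 18863 in AAV9-hFNDC4 and 20431 to 20870 in AAV9-CTRL. How far this difference bears on genes near 0 counts was not tested. Markers of the labelled tissue were nearly absent: of 15 cardiomyocyte markers, 3 reached 1 CPM (counts scaled to a common library size) in 3 libraries, Myl7, Nkx2-5 and Pln had 0 counts in all 6, and the markers summed to 45.2 to 46.7 CPM in AAV9-hFNDC4 and 58.6 to 59.2 CPM in AAV9-CTRL. The 8 fibroblast markers summed to 2615 to 3173 CPM against 1784 to 2227 CPM, but only 4 of them (Col1a1, Col1a2, Col3a1 and Pdgfra) reached 1 CPM in 3 libraries, and Dcn, Postn, Lum and Tcf21 were near 0. The 5 proliferation genes summed to 2116 to 2311 CPM against 1345 to 1512 CPM, of which Mki67 (897 against 320 CPM) and Top2a (918 against 601 CPM) were higher in AAV9-hFNDC4. Ccnb1 and Cdk1 were level, and Pcna was lower in AAV9-hFNDC4 (204 against 281 CPM). The 8 endothelial markers summed to at most 5.59 CPM and the 7 macrophage markers to at most 42.6 CPM in any library, and 0 of 10 testis germ cell markers reached 1 CPM in 3 libraries. The groups are therefore called by their labels below, and the part of these marker differences in the HSP70 values was not tested. In bulk libraries, fewer cells of a type and less RNA per cell cannot be told apart.

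HSP70 proteins hold and release their clients in a cycle of ATP binding and hydrolysis. J-domain proteins start hydrolysis, and nucleotide exchange factors, among them the HSP110-type relatives of HSP70, exchange ADP for ATP and free the client. The inducible genes Hspa1a and Hspa1b are classical targets of the heat shock factor HSF1 and are known to be induced in heart muscle by ischemia and reperfusion. Hspa8 is the constitutive cytosolic form, Hspa9 the mitochondrial form, and the remaining members have narrower or less studied roles.

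Hspa1a, Hspa1b and Hspa1l lie together on mouse chromosome 17 (GRCm38, GENCODE vM21 basic annotation). Hspa1b is a single exon of 2803 bases on the minus strand at chr17:34956436-34959238. Hspa1a is a single exon of 2967 bases on the same strand at chr17:34969190-34972156, and its start lies 12918 bases from that of Hspa1b. Hspa1l has 2 exons on the plus strand at chr17:34972703-34979285 and starts 547 bases from Hspa1a, facing away from it. The coding sequences of Hspa1a and Hspa1b are 99.4% identical, with 8 differing bases.

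**Figure D1:**
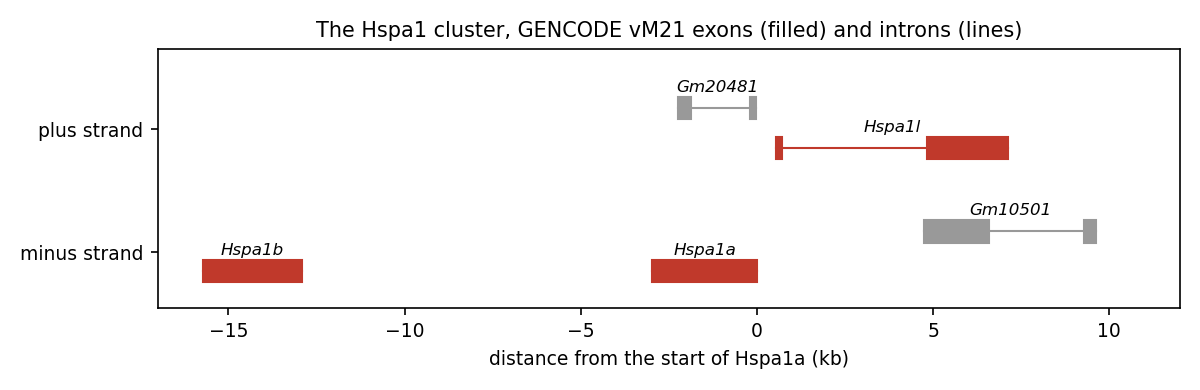
The Hspa1 cluster, drawn as distance in kb from the start of Hspa1a, with exons as filled boxes and introns as lines on each strand. Hspa1a and Hspa1l start 547 bases apart and point away from each other, and the grey genes Gm20481 and Gm10501 overlap exons of Hspa1a and Hspa1l on the opposite strand.

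The 250 bases before the start of 4 members are shown because the members of the cluster and Hspa4 differed widely in how far apart the groups were. They come from RefSeq promoter windows on GRCm38.p6, which were given for 7 of the 10 members, and read 5′ to 3′ on the strand of the gene. Capitals mark matches to the heat shock element pair GAANNTTC, a site form bound by HSF1, and to the CCAAT box CCAAT, which reads ATTGG on the other strand. The windows are chr17:34959239-34959488 for Hspa1b, chr17:34972157-34972406 for Hspa1a, chr17:34972453-34972702 for Hspa1l and chr11:53300480-53300729 for Hspa4.
Hspa1b: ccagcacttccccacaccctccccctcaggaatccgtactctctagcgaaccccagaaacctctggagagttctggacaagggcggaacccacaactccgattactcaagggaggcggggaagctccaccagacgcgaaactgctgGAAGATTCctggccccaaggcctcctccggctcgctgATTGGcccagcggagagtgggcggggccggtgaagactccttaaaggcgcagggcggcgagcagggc
Hspa1a: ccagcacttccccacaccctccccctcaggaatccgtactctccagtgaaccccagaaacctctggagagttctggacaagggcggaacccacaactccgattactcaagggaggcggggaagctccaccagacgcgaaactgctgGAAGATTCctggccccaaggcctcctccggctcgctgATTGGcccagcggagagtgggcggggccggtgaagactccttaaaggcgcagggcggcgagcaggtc
Hspa1l: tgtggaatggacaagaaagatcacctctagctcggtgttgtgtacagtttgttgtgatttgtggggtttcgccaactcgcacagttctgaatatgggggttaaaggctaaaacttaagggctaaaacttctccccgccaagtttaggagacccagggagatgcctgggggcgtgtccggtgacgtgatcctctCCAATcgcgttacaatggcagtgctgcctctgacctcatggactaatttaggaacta
Hspa4: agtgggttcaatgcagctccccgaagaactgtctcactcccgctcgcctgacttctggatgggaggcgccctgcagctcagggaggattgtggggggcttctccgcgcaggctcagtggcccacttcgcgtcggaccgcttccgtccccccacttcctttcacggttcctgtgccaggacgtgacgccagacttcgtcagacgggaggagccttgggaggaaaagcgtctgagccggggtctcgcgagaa

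The windows of Hspa1b and Hspa1a differed at 3 of 250 bases, given with the Hspa1b base first and positions counted from 1 at the 5′ end of the printed window: T44C, C47T and G249T. Both held GAAGATTC with its first base at -104 from the start, an inverted CCAAT box at -67 and GC boxes (GGGCGG) at -170, -49 and -16. Hspa1l held a CCAAT box at -57 and no match to either heat shock pair, and Hspa4 held none of these motifs. Hspa2, Hspa4l and Hspa14, whose windows are not printed, held no heat shock pair either, while Hspa2 had a CCAAT box at -29 and Hspa14 had 3, at -202, -71 and -30. A heat shock pair, searched on both strands as GAANNTTC or TTCNNGAA in 250 bases before to 50 after the start, was thus found in 2 of 7 members' windows and in 15.1% of all 32851 windows. CCAAT was found in 37.4% of all windows and GGGCGG in 35.7%. The triplet, TTCNN directly before the letters of GAANNTTC, overlaps the pair and was found in 0.603% of windows, and a match is only a description of the sequence.

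Levels are given as CPM on library sizes normalized by TMM (trimmed mean of M-values), and differences as edgeR log2 fold changes of AAV9-hFNDC4 against AAV9-CTRL with their standard error (SE). Hspa1b, the more abundant inducible gene, was at 4.83, 3.77 and 2.53 CPM in AAV9-hFNDC4 replicates 1, 2 and 3 and at 2949, 2211 and 2985 CPM in AAV9-CTRL replicates 1, 2 and 3. Every AAV9-hFNDC4 library was far below every AAV9-CTRL library. The means were 3.71 ± 1.16 CPM and 2715 ± 437 CPM (SD, n = 3 each), a log2 fold change of -9.51 (SE 0.26), or 731-fold lower. Among all 27482 symbols ordered by mean CPM, Hspa1b stood 15th from the top in AAV9-CTRL and at place 10871 in AAV9-hFNDC4. Of 115 genes with at least 1000 CPM in AAV9-CTRL, 1 had a mean below 1% of its control level in AAV9-hFNDC4, and that gene was Hspa1b. The next lowest of these, Hsp90aa1, was at 33.4% of its control level, a comparison chosen after the values had been seen.

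Hspa1a, the near-identical neighbour of Hspa1b, had 1, 3 and 0 counts in the AAV9-hFNDC4 libraries and 8417, 3061 and 6416 counts in the AAV9-CTRL libraries. These were 0.0267, 0.0831 and 0 CPM against 243.5, 97.6 and 192 CPM, again with no overlap. The ratio of summed counts, AAV9-CTRL over AAV9-hFNDC4, each scaled by the summed TMM library sizes of its group, was 4968 with an exact 95% binomial interval of 1940 to 18236. The fitted log2 fold change of -12.12 (SE 0.58) was the lowest of all 14663 genes tested. AAV9-hFNDC4 replicate 2 holds 3 of the 4 counts, and without it the fitted value was -13.34. Such intervals hold for counting error alone, as reads copied by PCR are not separate molecules.

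Because the sequences of Hspa1a and Hspa1b are so alike, how reads were divided between them is uncertain, and the 2 rows were also summed. Of the 100-base stretches of Hspa1b transcripts, 49.9% also occur in Hspa1a, and 47.1% of those of Hspa1a occur in Hspa1b. The sum was 4.86, 3.85 and 2.53 CPM in AAV9-hFNDC4 and 3193, 2309 and 3177 CPM in AAV9-CTRL. The groups did not overlap, AAV9-hFNDC4 stood at 0.129% of the AAV9-CTRL level, and the log2 fold change of the sum was -9.59 (SE 0.27). Hspa1a took 7.63%, 4.23% and 6.04% of the pair's counts in AAV9-CTRL replicates 1, 2 and 3, and 6.19% of the 288991 counts pooled (Wilson 95% interval 6.1% to 6.28%). In AAV9-hFNDC4 replicates 1 and 2 it took 0.549% (0.0971% to 3.05%) and 2.16% (0.737% to 6.15%), and 4 of 414 pooled counts, or 0.966% (0.376% to 2.46%). The interval of replicate 2 reaches the AAV9-CTRL shares, and the pooled intervals ignore the spread between libraries. With 0 of 93 counts in AAV9-hFNDC4 replicate 3, a share of up to 3.97% remained possible there by the Wilson interval. Taking 3 counts as the upper limit instead gave 3.23%.

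Hspa1l, the third gene of the cluster, is known mainly from testis, and it was low throughout. It had 0, 0 and 8 counts in AAV9-hFNDC4 replicates 1, 2 and 3 against 62, 65 and 73 counts in AAV9-CTRL, or at most 0.217 CPM against 1.79, 2.07 and 2.18 CPM. No AAV9-hFNDC4 library reached the AAV9-CTRL range, and the 8 counts all came from replicate 3. The ratio of summed counts, scaled by library size in the same way, was 27.8 (exact 95% interval 13.8 to 65.2), and the fitted log2 fold change was -4.73 (SE 0.81). Without AAV9-hFNDC4 replicate 3, Hspa1l had 0 counts in that group and was at least 49.3-fold lower, taking 3 counts over the group as its upper limit. In the annotation, 71.9% of its exon bases are shared with Gm10501 on the other strand, and without a stated strand setting reads of the 2 genes could not be told apart. Hspa1a likewise shares 19% of its exon bases with Gm20481 on the other strand. Neither Gm20481 nor Gm10501 was analysed here.

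**Figure D2:**
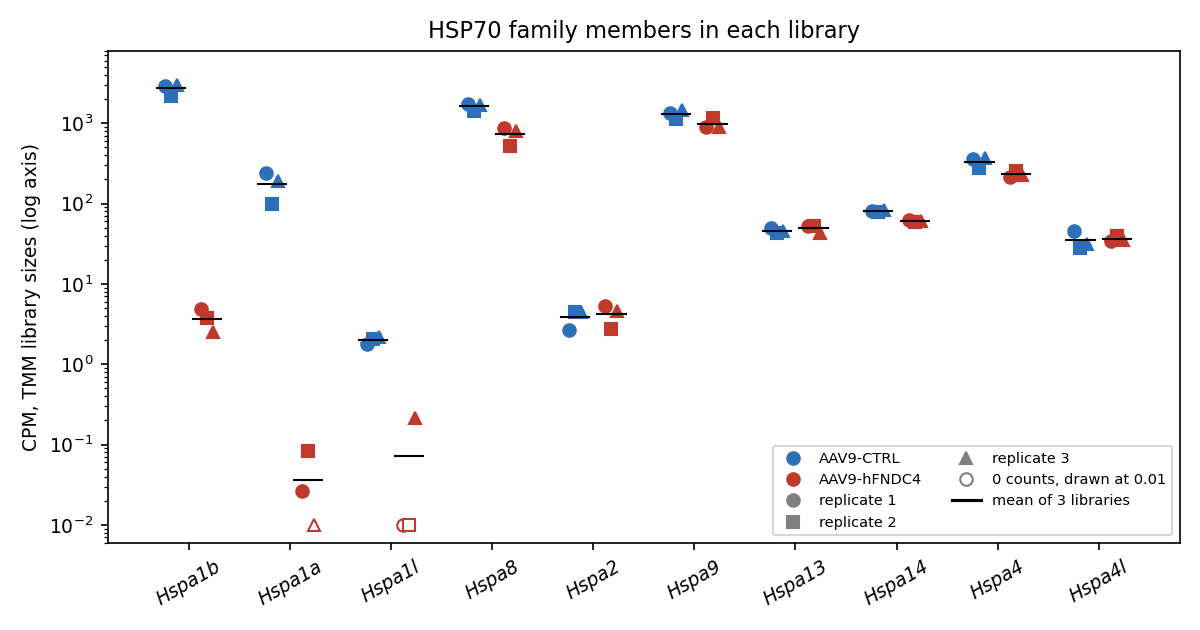
CPM of each member in each of the 6 libraries on a log axis, with 1 symbol per replicate, bars at the mean of 3 libraries and open symbols at 0.01 for libraries with 0 counts. Hspa1b lies between 2211 and 2985 CPM in AAV9-CTRL and between 2.53 and 4.83 CPM in AAV9-hFNDC4, whereas the 2 groups overlap for Hspa2, Hspa4l, Hspa9 and Hspa13.

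Hspa8 (chr9:40800984-40810087, plus strand, 9 exons) encodes HSC70, the constitutive cytosolic chaperone, which folds new proteins and uncoats clathrin vesicles. It was at 875, 523 and 792 CPM in AAV9-hFNDC4 replicates 1, 2 and 3 and at 1728, 1441 and 1711 CPM in AAV9-CTRL. All AAV9-hFNDC4 libraries were below all AAV9-CTRL libraries, and AAV9-hFNDC4 replicate 2 was at 62.7% of the mean of the other two libraries of its group. The means of 730 ± 184 and 1627 ± 161 CPM (SD, n = 3 each) gave a log2 fold change of -1.16 (SE 0.17), or 2.23-fold lower. Of its 100-base stretches, 63.4% occur in transcripts of other genes, none of them a family member, so reads of Hspa8 could have been assigned elsewhere.

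Hspa2 (chr12:76404176-76406938, plus strand) is required for meiosis in male germ cells. Its level was 5.34, 2.72 and 4.62 CPM in AAV9-hFNDC4 and 2.69, 4.53 and 4.43 CPM in AAV9-CTRL, so the groups overlapped in part, with 2 AAV9-hFNDC4 libraries above all AAV9-CTRL libraries and 1 near the lowest of them. The log2 fold change was 0.12 (SE 0.30), with a 95% interval of -0.47 to 0.72. Differences of up to about that size in either direction could not be detected in 3 against 3 libraries at 93 to 200 counts each.

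Hspa9, or mortalin, pulls proteins into the mitochondrial matrix and folds them there. It was at 898, 1175 and 908 CPM in AAV9-hFNDC4 and at 1356, 1125 and 1457 CPM in AAV9-CTRL. AAV9-hFNDC4 replicate 2 was above AAV9-CTRL replicate 2, so the groups overlapped, although the means were 994 ± 157 and 1313 ± 171 CPM. The log2 fold change was -0.40 (SE 0.14). It lay between -0.32 and -0.35 when replicate 1 or replicate 3 of either group was left out, and at -0.53 and -0.50 without replicate 2 of AAV9-hFNDC4 and of AAV9-CTRL.

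Hspa13 (chr16:75745431-75767104, minus strand), also named STCH, is a member of the microsomes that consists of little more than the ATPase domain. It was at 53.0, 52.1 and 42.6 CPM in AAV9-hFNDC4 and at 50.1, 43.0 and 45.4 CPM in AAV9-CTRL. These ranges overlapped, and the log2 fold change of 0.09 (SE 0.12) had a 95% interval of -0.15 to 0.33. Hspa14 (chr2:3488850-3512814, minus strand) works on nascent chains at the ribosome with the J-domain protein Dnajc2. It was at 63.1, 58.9 and 60.0 CPM in AAV9-hFNDC4 and at 81.5, 78.4 and 83.1 CPM in AAV9-CTRL. With group SDs of 2.17 and 2.39 CPM the spread was the smallest of the members relative to the mean, the groups did not overlap, and the log2 fold change was -0.42 (SE 0.10). Hspa14 shares 17.9% of its exon bases with Gm45902 on the same strand, which was not analysed here.

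Hspa4 (chr11:53259814-53300457, minus strand) and Hspa4l (chr3:40744495-40796103, plus strand) encode HSP110-type proteins, which serve as nucleotide exchange factors for the other HSP70s. Their coding sequences are 66.8% identical to each other, and that of Hspa4 is 44.3% identical to Hspa1a. Hspa4 was at 215, 255.5 and 228 CPM in AAV9-hFNDC4 and at 359, 275 and 368 CPM in AAV9-CTRL, with no overlap and a log2 fold change of -0.52 (SE 0.13). Hspa4l was at 34.1, 39.1 and 35.4 CPM in AAV9-hFNDC4, inside the range of 45.4, 27.8 and 31.9 CPM of AAV9-CTRL. Its log2 fold change was 0.05 (SE 0.17), with a 95% interval of -0.28 to 0.37.

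Across the family, 7 of 10 members were among the genes past the threshold on the lower side and 0 on the higher side, where the rule (adjusted p under 0.05) took 25.0% of all genes tested as lower and 22.1% as higher. The groups did not overlap for 6 members, all lower, where 29.5% of all genes were lower with no overlap and 27.1% higher, and 4 members were lower by more than 2-fold, where 8.52% of all genes were. Since the members were chosen with this contrast known, these counts test nothing about the family, and nothing is read from them. The median log2 fold change was -0.47 over the 10 members, -0.41 over the 8 without Hspa1a and Hspa1b, and 0.01 over all genes tested. From lowest to highest, the members stood at places 1 (Hspa1a), 7 (Hspa1b), 156 (Hspa1l), 979 (Hspa8), 3200 (Hspa4), 3868 (Hspa14), 3957 (Hspa9), 7715 (Hspa4l), 8103 (Hspa13) and 8400 (Hspa2) of 14663.

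**Figure D3:**
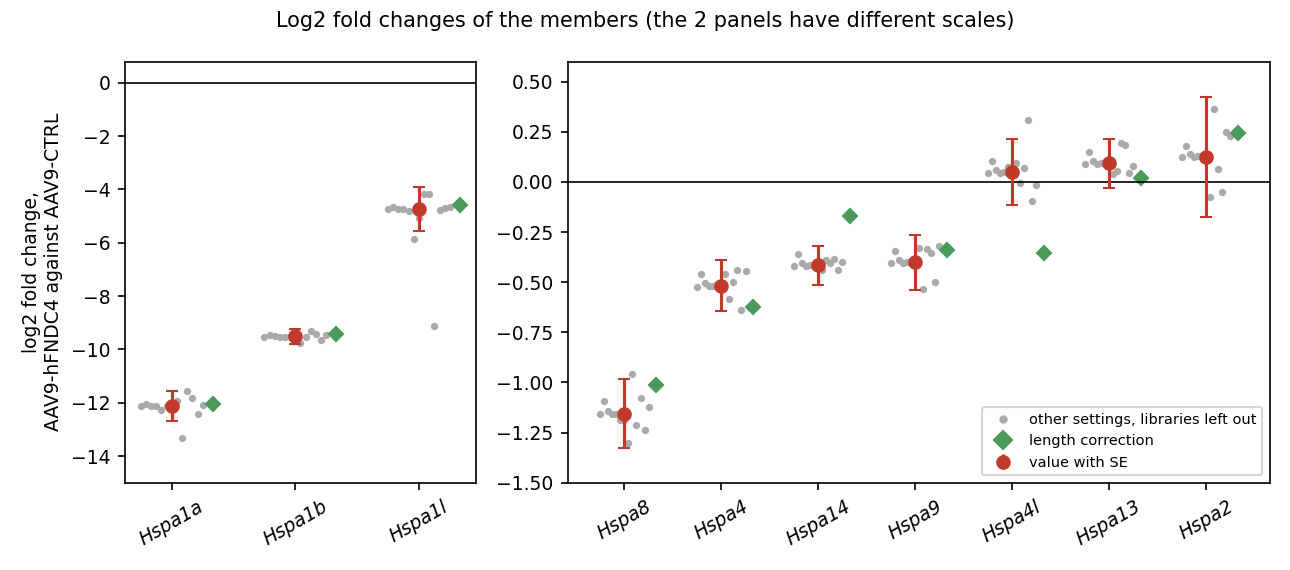
Log2 fold change of each member with its SE (red), the values under other settings and with each library left out (grey), and with a correction for transcript length (green), on a different scale in each panel. Hspa1a, Hspa1b and Hspa1l lie at -12.12, -9.51 and -4.73, the grey point of Hspa1l at -9.12 is the fit without AAV9-hFNDC4 replicate 3, and Hspa14 and Hspa4l move most with the length correction.

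Longer genes stood higher in AAV9-hFNDC4 across the whole table. The median log2 fold change ran from -0.49 in the shortest of 10 equal length classes (median 880 bases) to 0.46 in the longest (8579 bases), and the members span 1795 bases of exon in Hspa14 to 9618 in Hspa4l. With that trend removed, Hspa14 went from -0.42 to -0.17 and Hspa4l from 0.05 to -0.36. Hspa9 went to -0.34 and Hspa8 to -1.01. The source of the length trend was not tested.

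The order of the members by level was compared per kb of exon. In AAV9-CTRL it ran from Hspa1b (969 ± 156 CPM per kb; SD, n = 3) through Hspa8 (680 ± 67.3) and Hspa9 (431 ± 55.9) to Hspa4 (72.3 ± 11.1), Hspa1a (59.9 ± 24.9) and Hspa14 (45.1 ± 1.33). Hspa13, Hspa4l, Hspa2 and Hspa1l followed at 10.7, 3.64, 1.47 and 0.816 CPM per kb. Neighbours in this order did not overlap between libraries except Hspa4 with Hspa1a and Hspa1a with Hspa14. In AAV9-hFNDC4 the order was Hspa9 (326 ± 51.5), Hspa8 (305 ± 77), Hspa4 (50.5 ± 4.45), Hspa14 (33.8 ± 1.21), Hspa13 (11.4), Hspa4l (3.76), Hspa2 (1.6), Hspa1b (1.32), Hspa1l (0.0293) and Hspa1a (0.0123). There the library ranges of Hspa9 and Hspa8, of Hspa2 and Hspa1b, and of Hspa1l and Hspa1a overlapped, so Hspa1b stood first in AAV9-CTRL and beside Hspa2 in AAV9-hFNDC4.

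The 10 genes together reached 2149, 2109 and 2073 CPM in AAV9-hFNDC4 and 6818, 5305 and 6880 CPM in AAV9-CTRL, with group means of 2111 ± 38.0 and 6334 ± 892 CPM. The total was thus 3-fold higher in AAV9-CTRL, and the AAV9-hFNDC4 libraries lay close together. Hspa1a and Hspa1b accounted for 68.4% of the difference of 4223 CPM, Hspa8 for 21.2%, Hspa9 for 7.56% and Hspa4 for 2.38%. Without Hspa1a and Hspa1b, the totals were 2107 ± 36.8 and 3441 ± 387.5 CPM, a ratio of 1.63 with no overlap. In AAV9-hFNDC4 replicate 2 the low Hspa8 (523 CPM) and the high Hspa9 (1175 CPM) stood side by side in a total near those of the other libraries.

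The make-up of the family differed accordingly. Hspa1a and Hspa1b made up 45.5 ± 1.75% of the family's counts in AAV9-CTRL and 0.177 ± 0.0524% in AAV9-hFNDC4 (SD, n = 3 each). The share of Hspa9 was 20.8 ± 0.75% against 47.1 ± 7.51%, and that of Hspa8 was 25.8 ± 1.21% against 34.6 ± 8.58%. Hspa4 took 5.26% against 11%. These shares sum to the whole, so a larger share of Hspa9 or Hspa4 came with a lower CPM of the same gene. Counted per kb of exon, the pair made up 45.1 ± 1.84% and 0.182 ± 0.0529%.

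**Figure D4:**
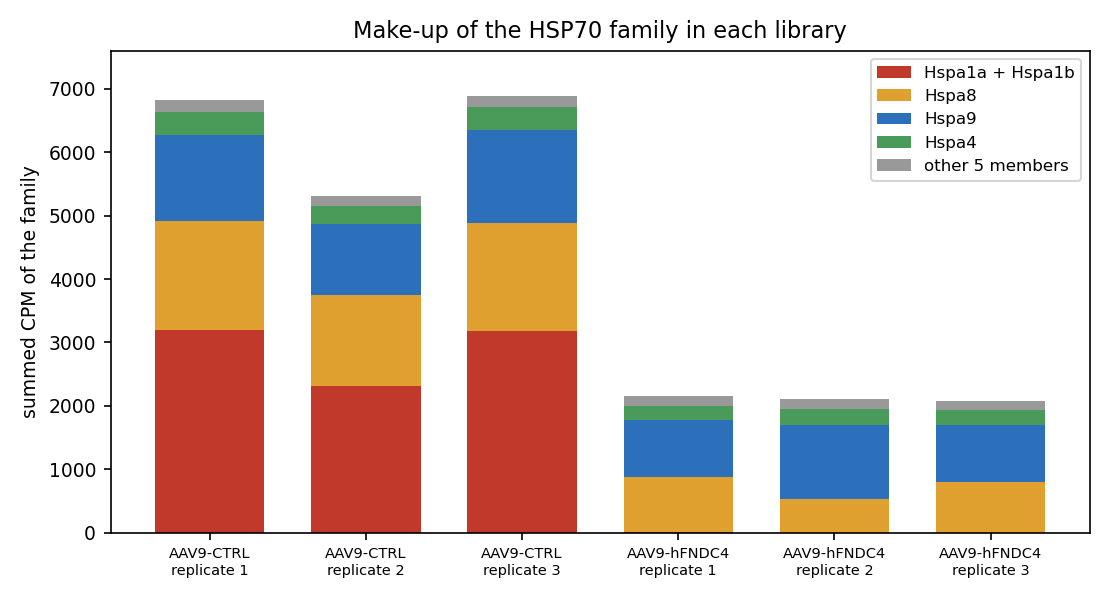
Summed CPM of the family in each library, stacked by member or group of members, with the axis starting at 0. The Hspa1a and Hspa1b layer makes up 45.5% of the family's counts on average in AAV9-CTRL and cannot be seen at this scale in AAV9-hFNDC4, and the totals are 5305 to 6880 CPM against 2073 to 2149 CPM.

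Among the control libraries, AAV9-CTRL replicate 2 was the lowest of the 3 for 8 of 10 members, while it was the lowest for 37.9% of all genes tested. Relative to the mean of the other two AAV9-CTRL libraries it was at 44.8% for Hspa1a, 74.5% for Hspa1b, 75.6% for Hspa4, 72% for Hspa4l, 79.9% for Hspa9 and 83.8% for Hspa8. The exceptions were Hspa2, at 127%, and Hspa1l, lowest in AAV9-CTRL replicate 1. No library was lowest for most members in AAV9-hFNDC4, where each was lowest for 3, counting no library when 2 were tied at 0. Leaving out AAV9-CTRL replicate 2 took Hspa1b to -9.64.

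Partners of HSP70 were counted in 7 lists of genes that work with it, chosen with earlier results of these data known. Outside the members, 75 of 81 listed genes were tested, and 47 were lower and 9 higher by edgeR's quasi-likelihood test (adjusted p under 0.05). The same rule took 25.0% of all genes tested as lower and 22.1% as higher. The median log2 fold change was -0.47 against 0.01 over all genes. Counts of single lists below stand beside the same shares of all genes. Given that choice of lists, the pooled and single-list counts and the adjusted p-values of partners are a description and not evidence. Higher partner calls numbered 5 without AAV9-hFNDC4 replicate 3, 4 without AAV9-hFNDC4 replicate 1 or AAV9-CTRL replicate 3, and 10 without AAV9-CTRL replicate 1. Without AAV9-hFNDC4 replicate 3, AAV9-hFNDC4 replicate 1 or AAV9-CTRL replicate 3, lower partner calls also fell, to 36, 38 and 38. Higher calls over all genes fell in the same order from 3240 to 2512, 2697 and 2299. With the length correction, 33 partner genes were lower and 9 higher, against 2970 and 2865 of all 13370 genes tested with it.

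Of the 5 other HSP70 superfamily genes, 3 were lower, 1 was higher and 1 did not pass. Hspa5, the HSP70 of the endoplasmic reticulum (BiP), was at 2875 ± 739 CPM in AAV9-hFNDC4 and 5380 ± 1339 CPM in AAV9-CTRL (log2 fold change -0.90, edgeR adjusted p = 0.00362). Hsph1, the HSP110 that is itself a heat shock gene, was at 42.7 ± 1.55 against 311.5 ± 87.2 CPM (-2.87, edgeR adjusted p = 2.17e-06). Hyou1, the HSP110 of the endoplasmic reticulum, was lower by a log2 fold change of -0.96 with overlapping groups and lost its call without AAV9-hFNDC4 replicate 3 or AAV9-CTRL replicate 1. Hspa12a, a distant relative, was higher, at 2.57 ± 0.83 against 1.06 ± 0.33 CPM (1.28), and lost its call without AAV9-hFNDC4 replicate 1 or AAV9-CTRL replicate 3. Hspa12b did not pass, at 5.95 and 4.70 CPM.

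J-domain proteins bring clients to HSP70. Of those listed under the name cytosol and nucleus, 13 of 24 tested genes were lower and 4 higher, with a median of -0.33. Dnaja1, a type A partner of Hspa8, had a log2 fold change of -1.55 (92.0 against 269 CPM), and Dnajb1, a stress-induced partner of Hspa1a, one of -0.66 (55.8 ± 6.02 against 88.4 ± 7.36 CPM). Dnajb4 was at -0.79 and Dnaja2 at -0.63. The 4 higher genes were Dnajc16 (0.63), Dnajb14 (0.59), Dnajb12 (0.57) and Dnajc14 (0.37). Dnajb14 lost its call with the length correction, and Dnajc14 without AAV9-hFNDC4 replicate 1 or 3 or AAV9-CTRL replicate 3 and with the replicate block. Dnajb12 and Dnajb14 sit in the membrane of the endoplasmic reticulum, so the name of the list does not hold for them. The location of the other listed proteins was not checked. The count of lower genes fell to 7 with the length correction or once AAV9-hFNDC4 replicate 3 was left out, and to 8 without AAV9-CTRL replicate 3.

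Nucleotide exchange factors, a list that also holds Hspa4, Hspa4l, Hsph1 and Hyou1, were lower for 7 of 13 and higher for 3 (median -0.52). Bag3, which links HSP70 to small heat shock proteins and to autophagy and is known for its role in heart muscle, was at 52.3 ± 3.82 against 224 ± 14.8 CPM (-2.10, edgeR adjusted p = 3.59e-07). Hspbp1 was at -1.05 and Bag1 at -0.62, and Grpel1, the exchange factor of Hspa9, at -0.69. Sil1 (0.38), Bag4 (0.35) and Bag5 (0.30) were higher, and 0 of these 3 kept the call without AAV9-hFNDC4 replicate 1 or 3 or AAV9-CTRL replicate 3.

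Adaptors and regulators were lower for 10 of 14 and higher for 0, with a median of -0.55. Stip1 (HOP), which hands clients from HSP70 to HSP90, was at 158 ± 9.75 against 295 ± 27.0 CPM (-0.90). Ahsa1, an activator of the HSP90 ATPase, was at -1.16, and the HSP90 cochaperones Fkbp4 and Cdc37 were both at -0.72. St13, which stabilises the ADP-bound form of HSP70, was at -0.59 and Stub1, the ubiquitin ligase CHIP, at -0.36.

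Mitochondrial partners of Hspa9 were lower for 8 of 11 and higher for 1 (median -0.50). Hspe1, the small subunit of the matrix chaperonin, was at 150 ± 7.64 against 374 ± 18.1 CPM (-1.32), and Hspd1, its large subunit, at 850 against 1326 CPM (-0.64). Pam16 (-0.83) and Dnajc19 (-0.80) belong to the import motor in which Hspa9 works, and Pam16 was no longer called with the length correction. Dnaja3, the main J-domain protein of the matrix, was higher, at 94.7 against 66.9 CPM (0.50). At the ribosome, Dnajc2, the J-domain partner of Hspa14, was lower (-0.50), as were Naca (-0.87) and Btf3 (-0.77), which were placed on the same list.

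Heat shock factors, HSP90 and small heat shock proteins were lower for 8 of 12 tested genes and higher for 0 (median -0.41). Hsp90aa1, the inducible cytosolic HSP90, was at 415 ± 42.7 against 1245 ± 274 CPM (-1.58), and the constitutive Hsp90ab1 at 2608 ± 263 against 4473 ± 257 CPM (-0.78). Hspb8, a partner of Bag3, was at 89.7 against 223.5 CPM (-1.32). Hspb1 had 1 count in AAV9-hFNDC4 and 117 in AAV9-CTRL, a ratio of 130 once scaled by library size (exact 95% interval 22.9 to 5176). Hspb1 passed the low-count filter through the AAV9-CTRL libraries, so it could only count as lower. Hsf1, the factor that switches on heat shock genes, was at 58.9 against 72.8 CPM (-0.31), and Hsf2 did not pass (0.32). The count of lower genes was 4 with the length correction or without AAV9-hFNDC4 replicate 1, and 1 gene was called higher with upper-quartile normalization and 2 with the length correction.

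**Figure D5:**
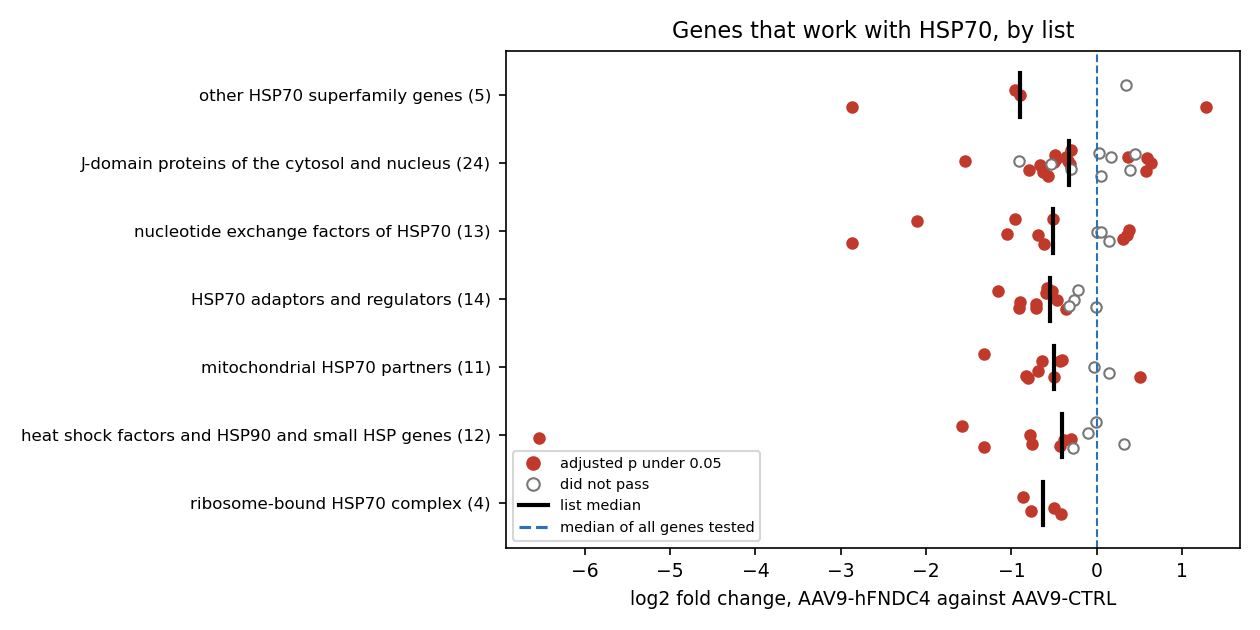
Log2 fold change of each tested gene in the 7 partner lists, with the number tested in brackets, filled points for genes past the threshold, black bars at list medians and a dashed line at the median of all genes tested. List medians lie between -0.90 and -0.33, and the genes farthest to the left are Hspb1, Hsph1 and Bag3. Of these, Hspb1 passed the low-count filter through the AAV9-CTRL libraries.

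Promoter windows were given for 65 of the partner genes, and 19 of them (29.2%) held a heat shock pair in at least 1 window, against 17% of all 27025 genes with a window. Single matches were looked up only for a few partners picked by hand, all of them lower. Matched partners that were higher or not called are not shown, and a link of a match with being lower was not tested. Among those looked up, Hsph1, Bag3, Hspb1 and Dnaja1 had a match, with GAACCTTC at -97 in Hspb1 and the triplet just after the start in Hsph1. Dnaja1 held GAAAATTC at -124 in 1 window and no heat shock pair in its other windows. Dnajb1 and Stip1, both lower, held no match in theirs.

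The genes nearest in pattern to Hspa1b and Hspa8 over the 6 libraries were sought by the root mean square difference of centred log2 CPM. The search covered 11417 genes outside the family, so Hspa1a could not appear. A prior count of 2 was added before the log, which shrinks the differences of genes with few counts. The distances thus also depend on abundance. To Hspa1b, none came within 1 log2 unit: the nearest were Ampd1 (1.16), Rasl11a (1.4), Colec11 (1.57), Ly6g6c (1.7) and Ccdc81 (1.78). All were far less abundant, with 27.2 CPM for Ampd1 and 3.69 CPM for Ccdc81 in AAV9-CTRL, and Rasl11a and Ccdc81 had 0 counts in every AAV9-hFNDC4 library. All met the required mean of 1 CPM through AAV9-CTRL, where each was higher. Their nearness to Hspa1b is thus a description of the same group difference. Near Hspa8 were Slbp (0.107), which binds the ends of histone mRNAs, Tgm1 (0.119), Tagln2 (0.136) and Pdlim7 (0.142). Slbp was at 68.9 against 147 CPM and Tagln2 at 175 against 387 CPM. None of these 9 genes is a listed chaperone partner.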

How the data were processed

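Raw read counts per gene symbol in 6 libraries were deposited by the authors, with no normalization. Per the submitters' processing notes, fastp, HISAT2, HTSeq, R 3.2.0 and DESeq2 were used with GRCm38 (mm10). Their settings, the strand setting and the annotation release were not stated there. Reads that match Hspa1a and Hspa1b, or overlapping genes, may have been split or dropped.

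Counts were fitted in R 4.3.3 with edgeR 4.0.16 (filterByExpr, TMM, robust quasi-likelihood F test, no covariate), with Benjamini-Hochberg adjustment over 14663 genes and a threshold of 0.05, after the test had been tested on simulated data. The SE is the log2 fold change divided by the square root of F, without its sign, and 95% intervals are the value ± 1.96 SE. Exon lengths and loci came from GENCODE vM21 basic, and promoters from RefSeq (GRCm38.p6). Total counts of 32975817 to 36074046 per library leave genes with few counts, such as Hspa1l, imprecise.

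The members and lists were chosen with earlier results of these data known. Named were all members, up to 4 genes per list with the smallest p, and all where 5 or fewer passed in 1 direction. Also named were the 5 genes nearest in pattern to Hspa1b and to Hspa8 at a mean of at least 1 CPM, members and predicted genes left out. A gene that this rule names is not reported here. Hspa12b, Bag1, St13, Stub1, Hspd1, Hsf1 and Hsf2 were added after their values had been seen. Alternatives were RLE and upper-quartile normalization, no filter, 1 CPM in 3 libraries, DESeq2 1.42.0, limma-voom (limma 3.58.1), the replicate number as a block, a length correction (loess, span 0.4), an unadjusted p, and each library left out.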

Additional observations from a re-analysis of the deposited data

How the results depend on the processing

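Hspa1a, Hspa1b, Hspa1l and Hspa8 were called lower under each alternative that gave a value. Hspa1b lay between -9.75 and -9.29 on the log2 scale and Hspa8 between -1.30 and -0.96. Hspa4 was called lower under each of them except the 2-fold limit, which its log2 fold change of -0.52 did not reach. As the members were chosen with the contrast known, these calls are a description. Of the 7 members called lower, 5 kept the call with the length correction (Hspa9 and Hspa14 lost it), and Hspa9 was the one lost without AAV9-hFNDC4 replicate 1 or 3 or AAV9-CTRL replicate 1 or 3. The log2 fold change of Hspa2 lay between -0.075 and 0.37 with 1 library left out, below 0 without AAV9-hFNDC4 replicate 1 or AAV9-CTRL replicate 1 (-0.05). That of Hspa4l was -0.36 with the length correction, the setting in which Hspa4l was also called lower. With 1 library left out it lay between -0.094 and 0.31, below 0 without AAV9-hFNDC4 replicate 2 (-0.0063), AAV9-CTRL replicate 2 or AAV9-CTRL replicate 3 (-0.018). With an unadjusted p under 0.05 and a 2-fold change, 4 members, 1120 genes lower and 1117 genes higher were called, against 7, 3668 and 3240, a smaller count by construction of the fold limit. Partner genes called higher numbered 9, and between 4 and 10 with 1 library left out. The cause was not tested. Whether the replicate numbers pair the libraries is not stated in the labels. Deviations of same-numbered libraries from their group means correlated at -0.0872, -0.202 and -0.0585, and no library correlated best with its own number. With 3 libraries per group, whose deviations cancel out, these values cannot decide whether libraries were paired. The replicate block called 3080 genes lower and 2663 higher, 6 members lower (Hspa9 not called) and 38 partner genes lower with 5 higher. The median log2 fold change of all genes shifted to -0.15 with no filter and -0.16 with DESeq2. These fits held 25222 and 25221 genes against 14663, and the source of the shift was not tested. Depth limits Hspa1a and Hspa1l in AAV9-hFNDC4, at 4 and 8 counts in all.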
